A study of Mus musculus with 400 samples.

Results

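The genes of G2 and mitosis were followed over 380 single stem cells of the mouse small intestine. They are 51 listed genes of 33496 in the table, chosen by name for their place in G2 or M phase, and all 51 were found. The choice was made with earlier results of these data known. Per the labels, the study sorted 400 cells high for green fluorescence from mice with one Lgr5 GFP allele (Lgr5 GFP/+, the Lgr5::EGFP-IRES-Cre-ERT2 line), from crypts of the duodenum and jejunum. The Lgr5 protein is a receptor that amplifies the Wnt signal in dividing stem cells at the base of the crypt, and this reporter line also carries a Cre recombinase at the same locus. No animal or age is named for any cell, and the tamoxifen in the treatment protocol is given there for lineage tracing. All cells form 1 group with no control, so no p-value was computed and cells were not used as replicates. The titles divide the cells into 10 library sets of 40, and every SD given is the spread between the means of these 10 sets, a technical split in which each set rests on under 40 cells.

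A cell that leaves S phase accumulates B-type cyclins, which bind and activate the kinase Cdk1. Entry into mitosis then brings chromosome condensation, breakdown of the nuclear envelope, assembly of the spindle and attachment of chromosomes through their kinetochores. A checkpoint holds the anaphase-promoting complex inactive until all chromosomes are attached, after which cyclin B is degraded, the chromatids part and cytokinesis divides the cell. Many of these genes are transcribed in a wave in G2, under the DREAM complex, B-Myb and FoxM1, and the promoters of many of them hold a short element called CHR (TTTGAA) and CCAAT boxes. Lgr5-high cells of the crypt base are known to divide about daily.

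The 380 kept cells had 10766 to 70133 counts each (median 32112) and a median of 8616 genes with a count, and 36 to 39 of them came from each library set. The limit was 10000 counts. The deepest cell left out had 9841 counts, of which 0.61% came from the 51 genes, and the shallowest kept cell had 10766, with 0.539%. The stem cell markers Lgr5, Olfm4 and Smoc2 had a count in 97.9%, 97.9% and 100% of kept cells, and Ascl2, Axin2 and Sox9 in 91.1% to 93.7%. Among genes of cells outside the epithelium, the T cell genes Cd8a and Cd3e were detected in 0.263% and 10.3% of the same cells. The leukocyte gene Ptprc was detected in 28.4% and the endothelial gene Pecam1 in 44.5%. Cd74, of antigen presentation, which gut epithelium can also express, was detected in 95%. Of the other crypt lineages, the goblet gene Muc2 was detected in 32.6% and the Paneth gene Lyz1 in 95.5%. No pair of cells had identical columns, and the barcode numbers recur in every set by design, so they identify no shared cell.

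Promoter windows, from 250 bases before to 50 bases after the transcription start, were available for 46 of the 51 genes (RefSeq, GRCm38.p6). The CHR letters TTTGAA, searched on both strands, were in 32 of these 46 genes (69.6%), against 20.2% of all 27025 genes with a window. Within 100 bases before the start and the 50 after it, 28 (60.9%) held them, against 9.23% of all genes. CCAAT, on both strands, was in 36 (78.3%) against 41.1%, and 28 (60.9%) held at least 2 against 13.3%. Both motifs were in 27 of the 46, a count for which no share over all genes was computed. The windows below show the range: both motifs in Hmgb2, Top2a and Cdc20, a pair of CHR copies in Mki67, CCAAT in Ccnb2 and Cks2, and neither in Birc5. Each is 120 bases, 5′ to 3′ on the strand of the gene and ending just before the start. Capitals mark TTTGAA or its reverse complement TTCAAA, and CCAAT or its reverse complement ATTGG, and no base belongs to both motifs.
Hmgb2 (chr8:57511723-57511842, plus strand): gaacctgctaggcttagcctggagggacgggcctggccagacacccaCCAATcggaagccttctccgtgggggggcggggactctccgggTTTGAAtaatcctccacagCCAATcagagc
Top2a (chr11:99024190-99024309, minus strand): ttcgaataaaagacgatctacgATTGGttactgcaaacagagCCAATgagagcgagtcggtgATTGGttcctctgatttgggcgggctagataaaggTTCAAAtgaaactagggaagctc
Cdc20 (chr4:118437353-118437472, minus strand): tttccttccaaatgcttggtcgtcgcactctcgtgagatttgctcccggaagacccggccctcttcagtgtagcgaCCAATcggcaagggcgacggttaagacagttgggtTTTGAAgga
Mki67 (chr7:135716380-135716499, minus strand): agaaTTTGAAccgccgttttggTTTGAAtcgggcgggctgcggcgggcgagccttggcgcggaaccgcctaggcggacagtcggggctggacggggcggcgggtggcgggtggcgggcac
Ccnb2 (chr9:70421555-70421674, minus strand): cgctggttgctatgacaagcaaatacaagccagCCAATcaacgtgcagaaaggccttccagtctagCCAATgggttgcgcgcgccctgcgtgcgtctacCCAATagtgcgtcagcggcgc
Cks2 (chr13:51645112-51645231, plus strand): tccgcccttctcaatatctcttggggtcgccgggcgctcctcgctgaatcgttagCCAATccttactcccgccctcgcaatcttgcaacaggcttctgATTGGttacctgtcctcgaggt
Birc5 (chr11:117849117-117849236, plus strand): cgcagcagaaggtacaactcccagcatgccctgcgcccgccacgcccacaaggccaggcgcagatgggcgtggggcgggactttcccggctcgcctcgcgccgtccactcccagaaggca
The Ccnb2 window of 300 bases also held 2 CHR copies outside these 120 bases, and that of Mki67 held 3 CCAAT sites outside them. The whole window of Cks2 held no CHR copy, and that of Birc5 held neither motif. A match is a string of letters and not a measured binding site.

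Chromatin and envelope genes gave the largest share of counts among 6 groups made by role. The 9 genes together took 0.216% ± 0.0129 (SD, 10 sets) of a cell's counts. Top2a (ENSMUSG00000020914.17; GRCm38 chromosome 11, 98992943 to 99024189, minus strand, protein-coding), the topoisomerase that untangles sister chromatids, had 2 to 26 counts in the 380 cells, with a median of 14, and a mean of 443 CPM ± 23.3 (CPM is the count divided by the total of the cell, scaled to a common depth). Set means ran from 399.7 in set 10 to 486.6 in set 2, so the sets lay close together. Mki67, the Ki-67 antigen that coats mitotic chromosomes, had 0 to 25 counts (median 10) and 315.1 CPM ± 29.9. Hmgb2 (ENSMUSG00000054717.6; GRCm38 chromosome 8, 57511907 to 57515999, plus strand, protein-coding), a DNA-bending protein of chromatin, had 0 to 23 counts (median 10) and 270.6 CPM ± 24.7. The others lay lower, from Tmpo, an envelope protein, at 231.02 CPM ± 32.8, through Cbx5, a heterochromatin protein, at 219.9 ± 14.5, to Anp32e, a histone chaperone, at 130.4 ± 15.9. Lbr, the lamin B receptor, Rangap1, the Ran GTPase activator, and Cdca2, a phosphatase subunit on chromatin, lay between them at 140.03 to 208.7 CPM. Counts in this group were found in 89.5% of cells or more for every gene.

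Genes of mitotic entry took 0.111% ± 0.0112 of counts over 8 genes. The B-type cyclins differed in level, with 0 to 18 counts of Ccnb1 (median 4; 145.1 CPM ± 21.04) and 0 to 20 of Ccnb2 (median 5; 185.5 CPM ± 30.1). Ccnb1 set means ran from 121.6 in set 6 to 186.7 in set 2, and those of Ccnb2 from 143.7 in set 3 to 246.4 in set 5, so their ranges overlap. Cdk1 (ENSMUSG00000019942.12; GRCm38 chromosome 10, 69335146 to 69352938, minus strand, protein-coding), the kinase they activate, had 0 to 16 counts (median 4) and 162.1 CPM ± 22.7. The small Cdk-binding subunits Cks2 and Cks1b had 196.6 CPM ± 22.1 (0 to 19 counts, median 6) and 122.4 CPM ± 20.4 (0 to 15, median 3). Cdca3, which promotes mitotic entry, had 176.5 CPM ± 29.5. The 2 lowest of the group were G2e3, a ubiquitin ligase, at 66.7 CPM ± 21.4, and Cdc25c, the phosphatase that removes the inhibitory phosphates of Cdk1, at 50.2 CPM ± 20.1, with a count in 66.8% and 62.4% of cells.

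Ube2c lay far above the other 6 genes of the kinase and checkpoint group. Ube2c (ENSMUSG00000001403.13; GRCm38 chromosome 2, 164769898 to 164778822, plus strand, protein-coding), the ubiquitin-conjugating enzyme of the anaphase-promoting complex, had 0 to 22 counts (median 10), 301.8 CPM ± 32.4 and a count in 99.2% of cells. Its partner Cdc20, which activates that complex, had 0 to 17 counts (median 3) and 111.9 CPM ± 33.7. Among the kinases, Aurka, of the spindle poles, had 0 to 14 counts (median 2) and 97.5 CPM ± 18.4, and Plk1, which acts from centrosomes to cytokinesis, 0 to 14 counts (median 2) and 88.3 CPM ± 18.3. The checkpoint kinases Ttk and Bub1 had 72.1 CPM ± 21.6 and 52.8 CPM ± 12.4, and Nek2, which parts the centrosomes, 45.8 CPM ± 17.6. A Nek2 count was found in 48.7% of cells (95% interval 43.6 to 53.8), near the 44.5% of Pecam1.

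The kinetochore and passenger group (9 genes) was led by Birc5 (ENSMUSG00000017716.15; GRCm38 chromosome 11, 117849251 to 117855743, plus strand, protein-coding), or survivin, a subunit of the chromosomal passenger complex, with 0 to 22 counts (median 8) and 262.6 CPM ± 34.8. Its complex partner Cdca8 (borealin) had 211.9 CPM ± 23.5, while the kinase of the complex, Aurkb, had 0 to 12 counts (median 1) and 58.2 CPM ± 11.3. Aurkb had a count in 61.1% of cells against 99.5% and 98.9% for Birc5 and Cdca8. Cenpa, the centromeric histone, and its chaperone Hjurp had 196.5 CPM ± 30.4 and 162.9 CPM ± 19.6, and the outer kinetochore proteins Cenpf and Cenpe 211.1 CPM ± 29.05 and 179.5 CPM ± 20.3. Ndc80 and Nuf2, which form the microtubule-binding complex of the kinetochore, were lower at 53.9 CPM ± 20.5 and 67.8 CPM ± 19.2.

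The spindle group (14 genes) held some of the highest and the lowest levels of the 51. Tubb4b (ENSMUSG00000036752.4; GRCm38 chromosome 2, 25222160 to 25224702, minus strand, protein-coding), a beta-tubulin, had 1 to 23 counts (median 10), 314.6 CPM ± 37.8 and a count in every kept cell. Nusap1, which bundles spindle microtubules, had 239.3 CPM ± 27.1, Tpx2, the activator of Aurora A, 159.6 CPM ± 22.6, and Ckap5, a microtubule polymerase, 157.6 CPM ± 25.3. Motors followed, with Kif11, which pushes the poles apart, at 132.6 CPM ± 22.8 and the depolymerase Kif2c at 52.9 CPM ± 17.2. At the low end Gtse1 had 30.5 CPM ± 13.8 and Gas2l3, a linker of actin and microtubules, 31.6 CPM ± 12.7, with a count in 35.3% (30.5 to 40.3) and 41.1% (36.1 to 46.2) of cells. Both shares lie below that of Pecam1, a gene of cells outside the epithelium. How much of the counts of either gene is background was not tested. Set against Lyz1 in place of Pecam1, 36 of the 51 genes were detected in fewer cells, a count given without a share over all tested genes. The intervals are exact Clopper-Pearson ones and cover counting error only. The cytokinesis group (4 genes) lay between these ends, with Kif23 of the central spindle at 152.4 CPM ± 32.3, Kif20b at 134.9 ± 28.3, Ect2, the exchange factor that activates RhoA, at 117.9 ± 29.1, and anillin, the scaffold of the cleavage furrow, encoded by Anln (ENSMUSG00000036777.7; GRCm38 chromosome 9, 22332012 to 22389188, minus strand, protein-coding), at 111.7 ± 70.97.

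**Figure D1:**
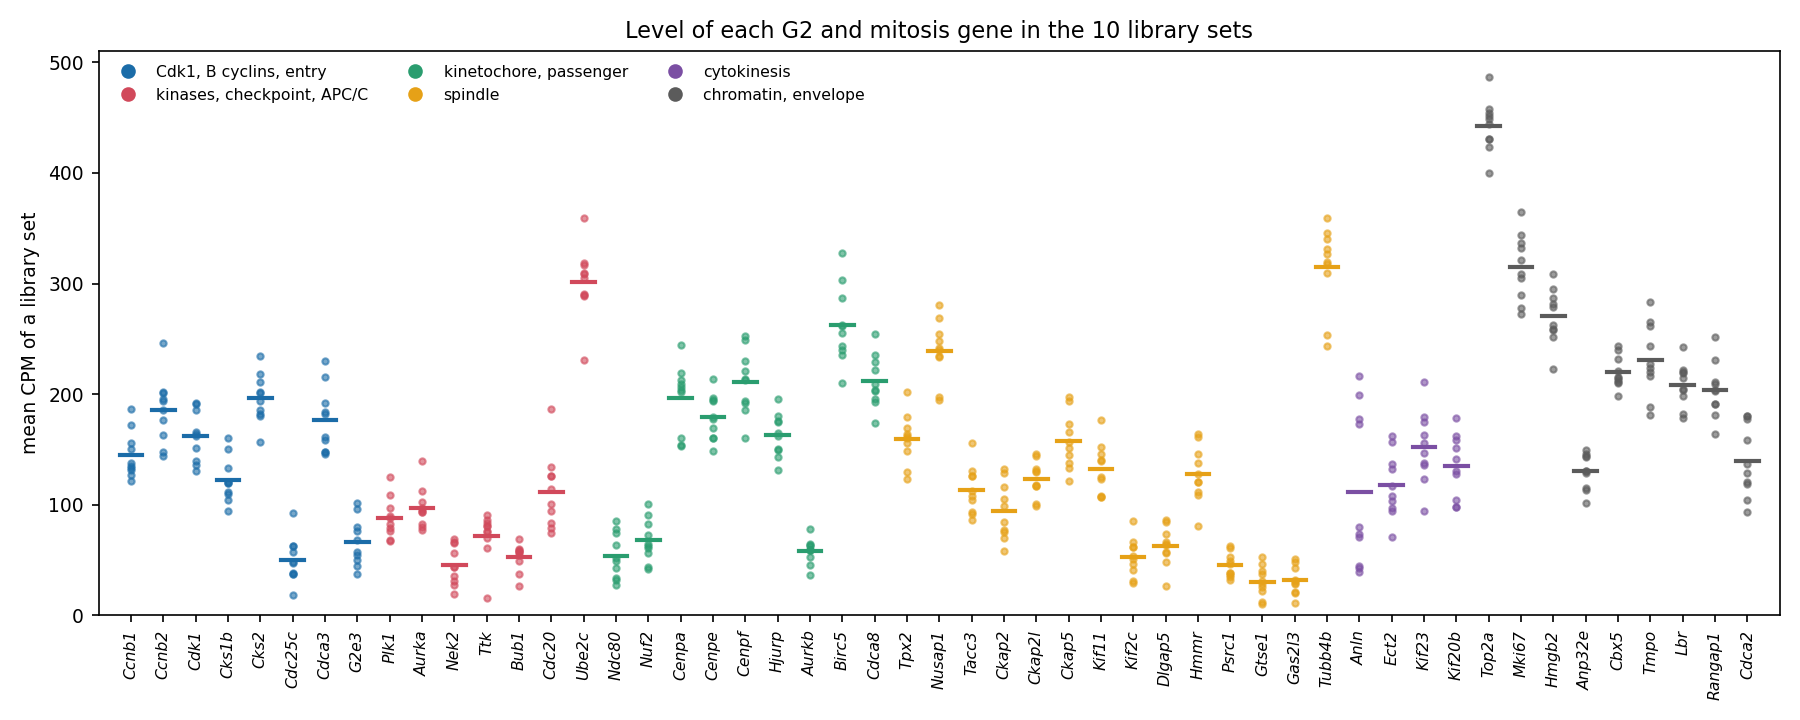
Mean CPM (linear axis) of each of the 51 genes in the 10 library sets; a point is 1 set, a bar the mean of the sets, and colours are role groups. Top2a lies highest, at 399.7 to 486.6 CPM in every set, and Anln has the widest spread, from 39.05 to 216.05 CPM.

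Per length, the order changed. Dividing mean CPM by the summed exon length gave 283.9 CPM per kb for Cks2, 150.9 for Tubb4b, 121.2 for Ccnb2, 116.05 for Ube2c and 108.8 for Cks1b, all short transcripts. Top2a reached 49.2 CPM per kb and Mki67 31.3. The lowest were Gas2l3 at 4.50, Ndc80 at 8.31 and G2e3 at 8.45 CPM per kb. These values assume that counts scale with length, and the sources used here do not say whether the counts were of reads along the transcript or of tags at its end.

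Some counts are shared with other annotated sequences. Of the 51 genes, 7 have a near-identical pseudogene in the table (at least 95% identity over 200 bases or more), 12 pseudogenes in all. Gm15452, a processed pseudogene identical to Cks2 over 240 bases, had a mean of 1.83 counts against 6.59 for Cks2, and both correlated over cells with rho 0.71. Ccnb1-ps had 0.732 counts against 4.82 for Ccnb1 (rho 0.56), and Tubb4b-ps1 0.889 against 10.02 for Tubb4b (rho 0.48). For Ndc80 the copy was nearly as high as the gene, with 1.54 counts of the pseudogene 2700099C18Rik against 1.85 (rho 0.14). The levels of Cks2, Ccnb1, Tubb4b, Cdc20, Ndc80, Mki67 and Hmgb2 are uncertain to that extent. So is that of Gas2l3, which shares a stretch of at least 200 bases at that identity with 22 other genes in the table, most of them protein-coding. Exons of 15 genes overlap an exon of another gene, such as Ube2c with Tnnc2 and Cdc20 with Elovl1, and the use of strand is not given in the sources used here.

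Summed over the 51 genes, the share of a cell's counts ran from 0.229% in the lowest cell through a median of 0.785% to 1.26% in the highest, a 5.52-fold range. Cells in the middle of the distribution, between the quartiles, had 0.567% to 0.959%. These are 48 to 620 counts per cell. The lowest cell for breadth had a count for 26 of the 51 genes, the median cell for 43.5, and 3 cells for all 51. Library sets differed little: set means averaged 0.764% ± 0.0537, from 0.699% in set 10 to 0.8495% in set 5, while the SD between cells within a set averaged 0.233 percentage points. Every set spanned low and high cells.

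**Figure D2:**
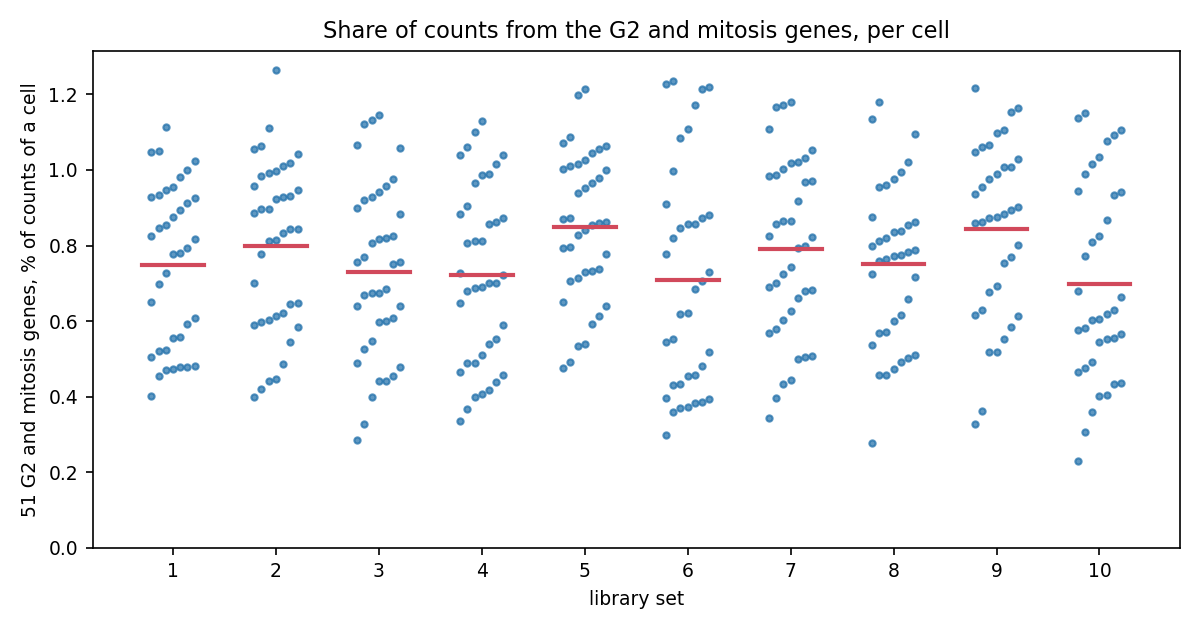
Share of counts from the 51 genes (percent, linear axis from 0) in each of 380 cells by library set; a point is 1 cell, a bar the mean of the set. Cells run from 0.229% to 1.26% without a gap, and the 10 set means lie between 0.699% and 0.8495%.

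Counts of the genes spread more between cells than counting noise at equal depth would give. The Fano factor (variance over mean of counts, which is 1 for counting noise at equal depth) was 1.99 for Top2a, 3.08 at the median and 4.09 for Nek2, and exceeded 2 for 50 of 51. Differences in depth between cells also raise the factor, and how much of it they account for was not tested. No share over all tested genes is given beside this count.

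Most of the 51 genes varied together over cells. For each gene, Spearman's rho was taken over the 380 cells between its CPM and the summed CPM of the other 50, and a rho of at least 0.3 was called. All values share the scaling by the total of the cell, and no label ties a cell to an animal, so they describe the cells and carry no p. Of the 51 genes, 36 were called, against 0.993% of the 17217 genes detected in 10% or more of kept cells. That background includes the 51 and also genes with sparser counts, while 47 of the 51 were detected in 50% or more of cells. The part of detection in this difference was not tested. All 51 were above 0, against 47.1% of all tested genes, with a median of 0.40 against -0.01. At a limit of 0.2, 47 were called against 4.89%. Within single sets, 41 of the 51 were above 0 in all 10, also without a share over all tested genes to set beside it.

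The strongest were Ube2c and Hmgb2, both at 0.68. Within sets, Ube2c ranged from 0.35 to 0.81 and Hmgb2 from 0.51 to 0.83. Ccnb2 and Cdca3 followed at 0.59, then Tpx2 and Nusap1 at 0.58, Birc5 at 0.58, Cks2 at 0.57 and Cenpa at 0.56. Cenpf, at 0.56, was the steadiest of these between sets, at 0.50 to 0.64. Mki67 reached 0.54, Top2a 0.52, Ccnb1 0.51, Cdk1 0.45, Aurka 0.45, Cdc20 0.44, Cks1b 0.39, Plk1 0.35 and Aurkb 0.31. By role group, the highest gene was Ccnb2 for entry, Ube2c for kinases and checkpoint, Birc5 for kinetochore, Tpx2 for spindle, Kif20b (0.44) for cytokinesis and Hmgb2 for chromatin.

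The 15 genes under the limit were Psrc1 at 0.29, then Anp32e, Bub1, Ndc80, Ckap5, Gtse1, Hjurp, Rangap1, Kif2c and Nek2 (0.25 to 0.28), Anln at 0.22, Cdc25c at 0.20, Cbx5 at 0.19, Gas2l3 at 0.18 and Dlgap5 (a spindle assembly factor) at 0.16. The called genes nearest to the limit were Aurkb and Ttk, both at 0.31. Hjurp, Cbx5 and Rangap1 had a count in over 95% of cells and a mean of 5.20 to 6.86 counts, so low counts were not common to all genes under the limit. Dlgap5 was below 0 in 3 of 10 sets, down to -0.32, and Ckap5 fell to -0.29 in 1 set.

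**Figure D3:**
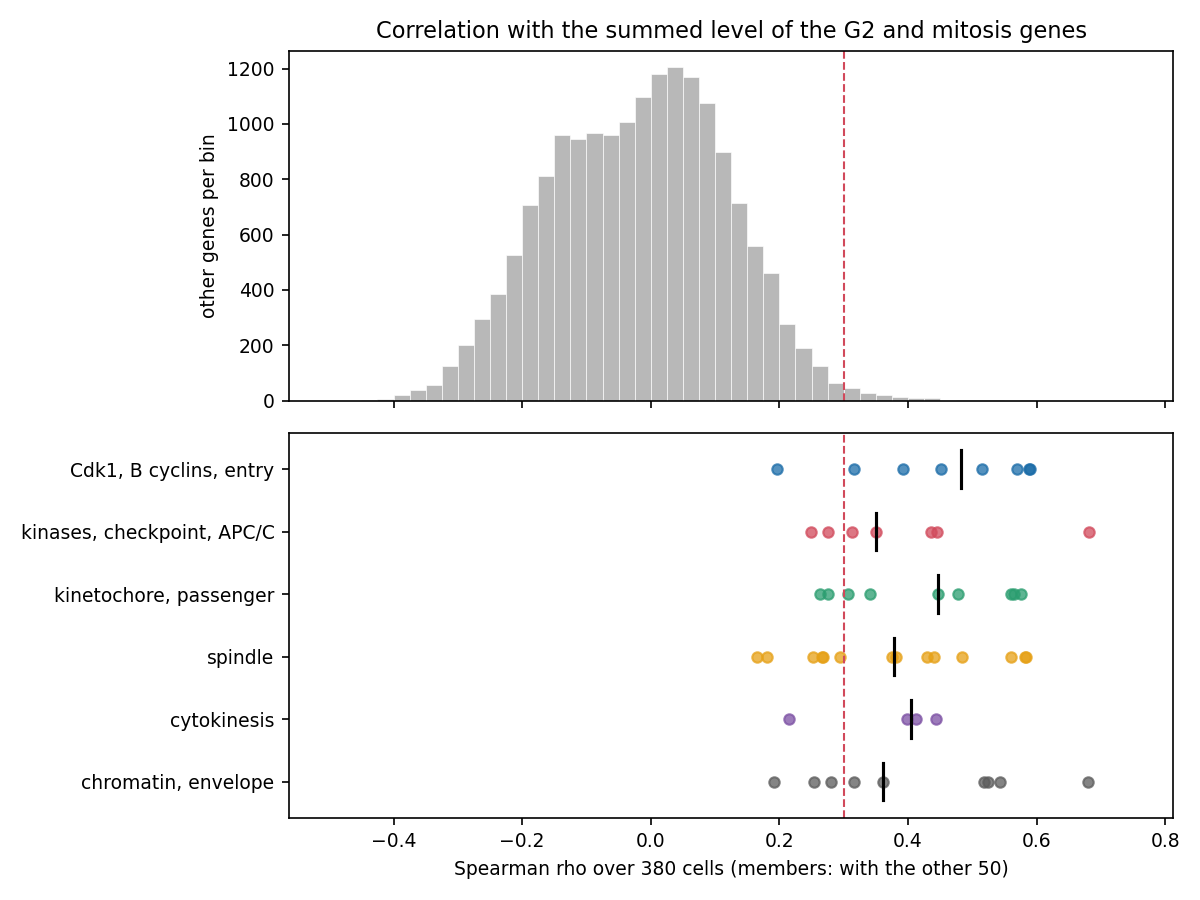
Top, the number of other tested genes by their Spearman rho with the summed CPM of the 51 genes (bins of 0.025); bottom, each of the 51 genes by its rho with the other 50, by role group, with a black bar at the group median. The dashed line is the limit of 0.3, which 36 of the 51 genes pass.

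Taken as groups, each role followed the rest. The summed CPM of the spindle genes correlated with that of all genes outside the group at rho 0.83, the kinetochore genes at 0.82, entry at 0.81, kinases and checkpoint at 0.75, chromatin at 0.74 and cytokinesis at 0.60. Within sets the lowest of these values was 0.40, for kinases and checkpoint. When the 51 genes were placed by turns into 2 sublists in alphabetical order, the sublists correlated at 0.87, and at 0.71 to 0.92 within sets.

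Pairs of single genes correlated weakly. The median over 1275 pairs was 0.17, against 0.01 over all 148203936 pairs of tested genes. A rho of at least 0.3 was reached by 12.9% of these pairs against 0.446%, and 22 pairs were below 0. Within sets the median lay between 0.14 and 0.26. The highest pairs were Cdca3 with Hmgb2 (0.54), Ube2c with Hmgb2 (0.53), Cks2 with Hmgb2 (0.52), Ccnb2 with Cenpa (0.51) and Ccnb2 with Tpx2 (0.49). Of the 15 highest pairs, 13 held Hmgb2, Ube2c or Ccnb2. Hmgb2 reached 0.3 with 24 of the other 50 genes, Ube2c with 23 and Nusap1 with 21, while 20 genes reached it with none.

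Known partner proteins differed widely in how their genes varied together. The outer kinetochore pair Cenpe and Cenpf ranked 29th of the 1275 pairs at 0.41 (within sets 0.17 or more), and the B-type cyclins Ccnb1 and Ccnb2 ranked 51st at 0.38. Aurka with its activator Tpx2 reached 0.33, Cks1b with Cks2 0.32 and Cdc20 with Ube2c 0.32. Both cyclins correlated less with their kinase, Ccnb2 with Cdk1 at 0.23 and Ccnb1 with Cdk1 at 0.21. The passenger complex gave 0.27 for Birc5 with Cdca8, 0.19 for Aurkb with Birc5 and 0.12 for Aurkb with Cdca8. Ndc80 with Nuf2 gave 0.18, Cenpa with its chaperone Hjurp 0.14 and Anln with Ect2 0.10. Mean counts of Aurkb, Ndc80 and Nuf2 were 1.85 to 2.28.

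**Figure D4:**
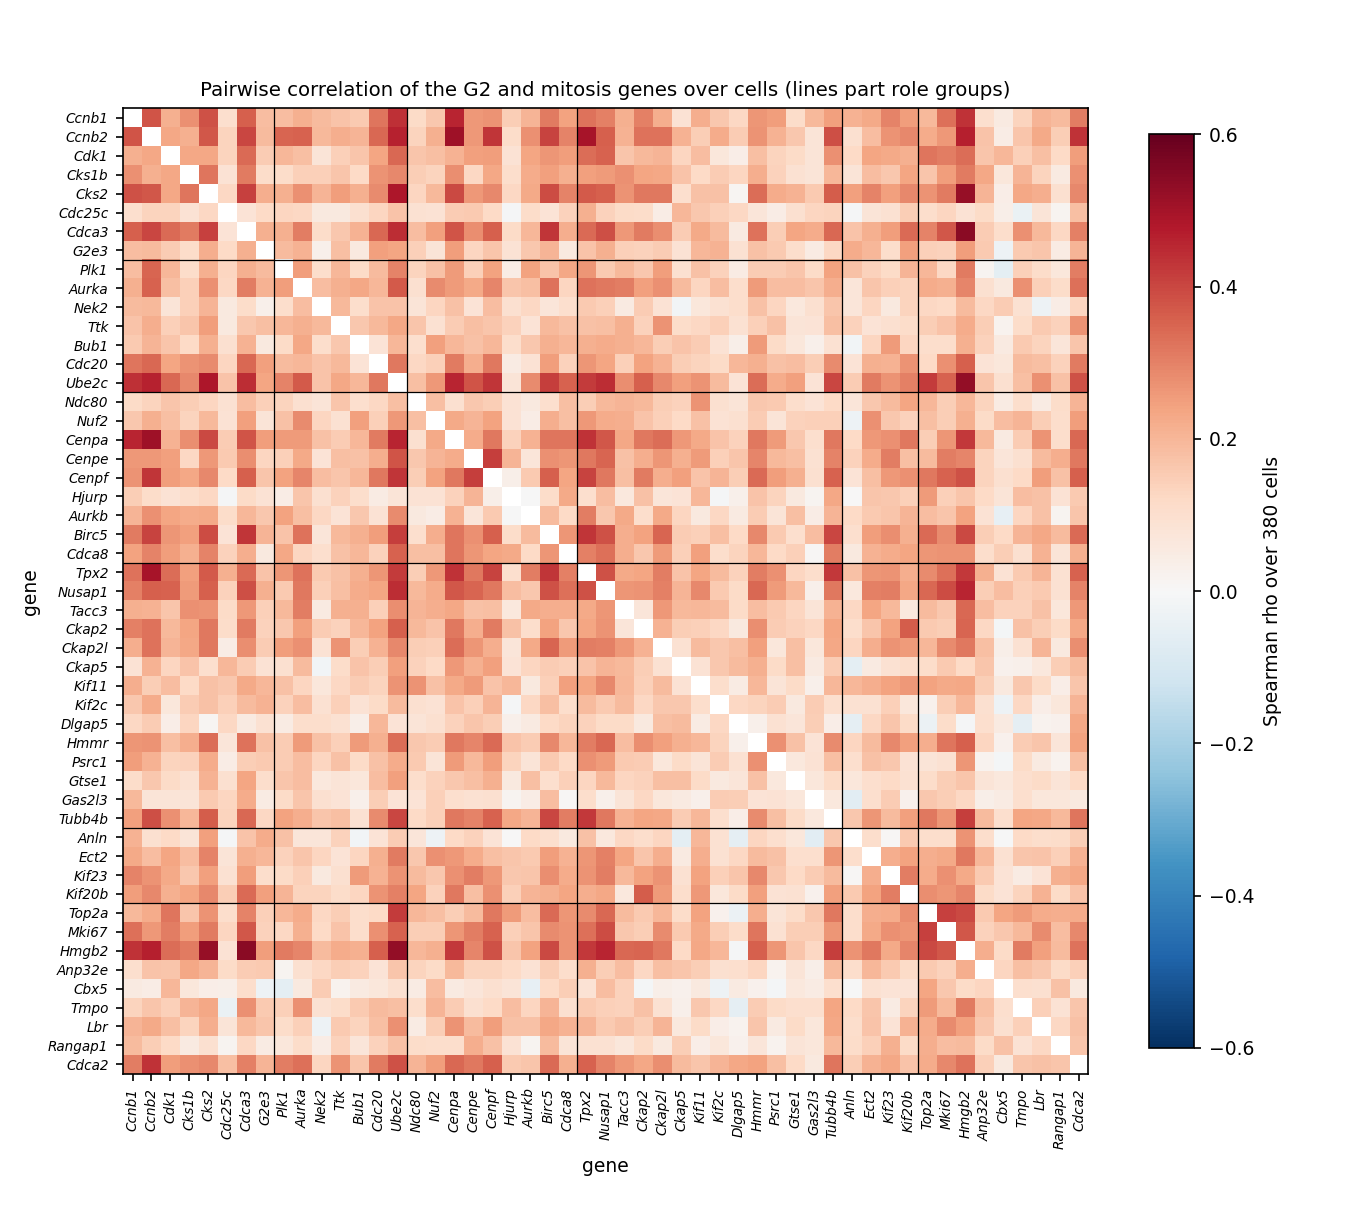
Spearman rho over 380 cells for every pair of the 51 genes (colour scale -0.6 to 0.6, diagonal left blank), ordered by role group. Rows of Hmgb2, Ube2c, Nusap1, Cdca3 and Tpx2, each with 20 or more partners at 0.3 or above, are darkest, up to 0.54, and those of Cbx5, Dlgap5, Gas2l3 and Anln are palest.

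To show the size of the variation, cells were ranked for each gene by the summed CPM of the other 50 and divided into 3 groups of near-equal size (low, middle, high). The groups are ranges of a continuous measure. Their limits lay at shares of 0.627% and 0.885%, with a median of 30 and 48 cells within 5% of them. All 51 genes had a higher mean CPM in the high than in the low group, and 35 were at least 2 times higher, against 3.05% of all tested genes. The median ratio was 2.35, against 0.95 for all tested genes. Within all 10 sets, 44 genes were higher in the high group, a count given without a share over all tested genes.

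The largest ratios were those of low genes, but other low genes lay under the median ratio, such as Dlgap5 (1.57) and Cdc25c (1.83). Gtse1 went from 12.4 CPM in the low through 25.7 in the middle to 53.5 in the high group (4.31 times), Psrc1 from 19.9 through 45.2 to 69.9 (3.52 times), Nuf2 from 30.5 through 71.6 to 101.5 (3.33 times) and Aurkb from 26.6 through 61.6 to 86.8 (3.26 times). Ccnb1 had 75.1, 149.1 and 210.99 CPM, Cdk1 92.05, 173.2 and 221.3 CPM, and Plk1 54.6, 79.9 and 131.4 CPM. Cdk1 took most of its step between low and middle, while Plk1 took most of its own between middle and high. Top2a was in every cell of all groups and moved from 354.7 through 452.4 to 522.1 CPM (1.47 times), and Mki67 from 234.7 through 319.9 to 389.2 CPM (1.66 times). Chromatin genes had the smallest median ratio of the role groups, 1.64, and entry genes the largest, 2.51. Cbx5 had the smallest of all, 1.23. Counts in the table reach at most 36, and Top2a had mean counts of 9.75 in low and 17.1 in high cells. The ratios were not corrected for this ceiling, and its part in them was not tested. At equal depth (19169 counts, with 38 shallower cells left out) Ccnb1 had a count in 64.8% of low, 84.2% of middle and 95% of high cells, against 80.3%, 89.7% and 96.9% at full depth, and Aurkb in 35.2%, 55.3% and 62.5%, against 44.1%, 67.5% and 71.7%. The median ratio of the 51 genes at equal depth was 2.30.

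Depth and library composition moved with this measure. Median totals were 27514, 34862 and 33651 counts in the low, middle and high cells, and rho of the summed share with total counts was 0.20 (-0.10 to 0.48 within sets). The share of counts from genes that span 500 kb or more, which ran from 1.29% to 7.13% over cells, correlated with it at -0.44, and at -0.75 to -0.14 within sets. Its median was 3.48%, 2.16% and 1.91% in low, middle and high cells. Among the 7435 other genes detected in 50% or more of cells, 34 of the 50 with the lowest rho span 500 kb or more, against 3.13% of all of them and 0 of the 50 with the highest. The 5 lowest were Galntl6 (-0.43), Pde11a (-0.42), Fhit (-0.42), Gm28376 (-0.41) and C130026I21Rik (-0.40), and 1.44% of all tested genes were at -0.3 or lower. With the long-gene share held constant, an alternative chosen after seeing the data, 30 of the 51 genes were called in place of 36, and all 30 belong to those 36. With total counts and number of genes held constant, 33 were.

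S phase genes did not follow the mitotic ones. The summed CPM of 45 replication genes had rho -0.09 with that of the 51 genes, from -0.50 to 0.20 within sets. Of the 45 genes, 0 reached 0.3, against 0.993% of all tested genes, so in a list of this size 0 says little. The rho of the sums was -0.29 with total counts and number of genes held constant. With mean z-scores in place of sums it was 0.05, so its direction depends on the measure. The S phase genes themselves lay between E2f8 (0.18), Cdca7 (0.14) and Rrm1 (0.14) and, at the low end, the chromatin remodeller Hells (-0.18) and the polymerase subunit Pola1 (-0.20). Among the 51, rho with the S phase sum ran from -0.22 to 0.16, and none reached 0.2. The genes with values above 0 included Cbx5 (0.16), Top2a (0.15), Tmpo (0.15) and Hjurp (0.13), with Top2a above 0 in 9 of 10 sets. At the other end stood Cenpa (-0.22), Kif2c (-0.21) and Cdc20 (-0.19), with Cenpa above 0 in 1 set, Kif2c in 0 and Cdc20 in 2. As groups, chromatin genes had 0.11 (above 0 in 7 sets) and spindle genes -0.19 (above 0 in 2). These are weak correlations of sparse counts and are given as values.

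As a sum, other mitotic genes outside the 51 followed them closely, while the single genes did so less. A list of 57 further genes of mitosis, chosen by function with earlier results of these data known, had 56 in the table. Their summed CPM correlated with that of the 51 at 0.84, and at 0.59 to 0.92 within sets, and 21 of 56 single genes reached 0.3, against 0.993% of all tested genes. The median rho of the single genes was 0.22, and 52 of them were above 0, against 47.1% of all tested genes. Ccna2, cyclin A2, led at 0.54, from 112.6 CPM in low to 245.9 CPM in high cells. Kif15, a spindle motor, followed at 0.51 (86.4 and 202.2 CPM) and the histone H2afx at 0.48 (67.03 and 187.5 CPM). Mybl2 (B-Myb) lay at -0.02 and Lin54, a subunit of DREAM, at -0.05. The count of 21 was 13 with total counts and number of genes held constant, and 13 with the long-gene share held constant.

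Over all genes outside the 51, the 10 with the highest rho among those in at least 50% of cells were the alpha-tubulins Tuba1c (0.58) and Tuba1b (0.50), the nucleosome-binding Hmgn2 (0.55), Ccna2 (0.54), Arl6ip1 (0.51), Kif15 (0.51), Jpt1 (0.49), the Cks2 pseudogene Gm15452 (0.48), H2afx (0.48) and the histone variant H2afz (0.44). Each was above 0 in all 10 sets, with the lowest value, 0.08, for Gm15452. Of the called genes outside the 51, 31 (22.96%) are annotated as pseudogenes, against 9.18% of all tested genes.

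Stem cell, G1, brake, lineage and immune lists had values from -0.17 to 0.18. The stem cell list had rho -0.03 (-0.28 to 0.23 within sets), with Ascl2 (0.20), Aqp4 (0.17) and Cdca7 (0.14) highest and Znrf3 (-0.14) and Tnfrsf19 (-0.22) lowest. Lgr5 itself lay at -0.07 and Mex3a, the RNA-binding protein gene in the study's title, at 0.02 with a count in 12.4% of cells. The G1 list had 0.01, with Myc (0.24) and Cdk4 (0.20) highest, Ccnd1 at 0.05, and Ccnd3 (-0.12) and E2f1 (-0.17) lowest. Cell cycle brakes had 0.18 (-0.02 to 0.33 within sets), with Tob1 (0.20), Cdkn1b (0.19) and Ccng2 (0.19) highest and Rbl2 (-0.05) and Rb1 (-0.13) lowest. Paneth genes had -0.01, goblet -0.06, enteroendocrine -0.14, tuft -0.17, enterocyte 0.05 and immune genes 0.09 (-0.13 to 0.46 within sets). The immune list was mixed, with the antigen presentation genes H2-Aa (0.16) and Cd74 (0.10) highest and Cd52 (-0.15) and Ptprc (-0.20) lowest. Ptprc had 19.5 CPM in low and 6.61 CPM in high cells. None of the tested single genes of these lists reached 0.3 in either direction. Of all tested genes, 0.993% were at 0.3 or more and 1.44% at -0.3 or lower, so in lists of this size that says little.

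Endothelial and stromal markers were the lists furthest below 0, at -0.27 (-0.69 to 0.03 within sets) and -0.24 (-0.45 to 0.17). All 4 endothelial genes were found, in 14.5% to 44.5% of cells, and their summed share was 0 to 0.0651% of counts in low cells (mean 0.0101%) and 0 to 0.0416% in high cells (mean 0.0034%). Pecam1 had 42.6 CPM in low and 12.9 CPM in high cells. Of the 6 stromal genes, 2 were in under 5% of cells, and the sum was 0 to 0.0226% in low and 0 to 0.0113% in high cells. Their part in the variation of the mitotic genes was not tested. With total counts and number of genes held constant the endothelial value was 0.0021 and the stromal value -0.06, and the lists furthest below 0 were then S phase (-0.29), G1 (-0.15) and stem cell genes (-0.14). With the long-gene share held constant they were 0.0174 and -0.04.

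The level of Anln differed most between library sets. It averaged 216.05, 177.6, 173.01 and 199.2 CPM in sets 2, 3, 6 and 9, and 39.05 to 79.7 CPM in the other 6, so these sets did not overlap the rest. A count was found in 94.6% to 100% of cells of the 4 sets and in 61.5% to 87.2% of the others. The coefficient of variation over sets was 63.6%, which ranked 3rd of 7482 genes with a median of 21.7%, while the median of the genes of G2 and mitosis in that ranking was 16.2%. The rho of Anln with the other 50 was 0.22 over all cells and 0.26 to 0.50 in the 4 sets, and -0.08 to 0.48 in the other 6, so these ranges overlap. Ect2 and Kif23, the other cytokinesis genes shown with it, did not share this division. Of the other 46 genes ranked, Cdc25c (40.1%), Ndc80 (37.99%), Kif2c (32.5%) and G2e3 (32.03%) had the next highest coefficients, ahead of Cdc20 (30.1%) and Ttk (29.9%). Ttk and Cdc20 each had a single set flagged as apart from the other 9, in 2 of 52 groups of set means screened. Chance passes the criterion in about 1 of 20, so 2 of 52 is no more than chance would give. Ttk averaged 15.5 CPM in set 10 and 61.3 to 90.6 CPM in the other 9, with a count in 21.6% of cells of set 10 against 64.1% to 89.5%. Cdc20 averaged 186.7 CPM in set 9, which was 1.39 times the next highest set, and 74.1 CPM in the lowest set. No label ties a set to an animal or a day, so whether these differences arose in the cells or in the libraries was not tested.

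**Figure D5:**
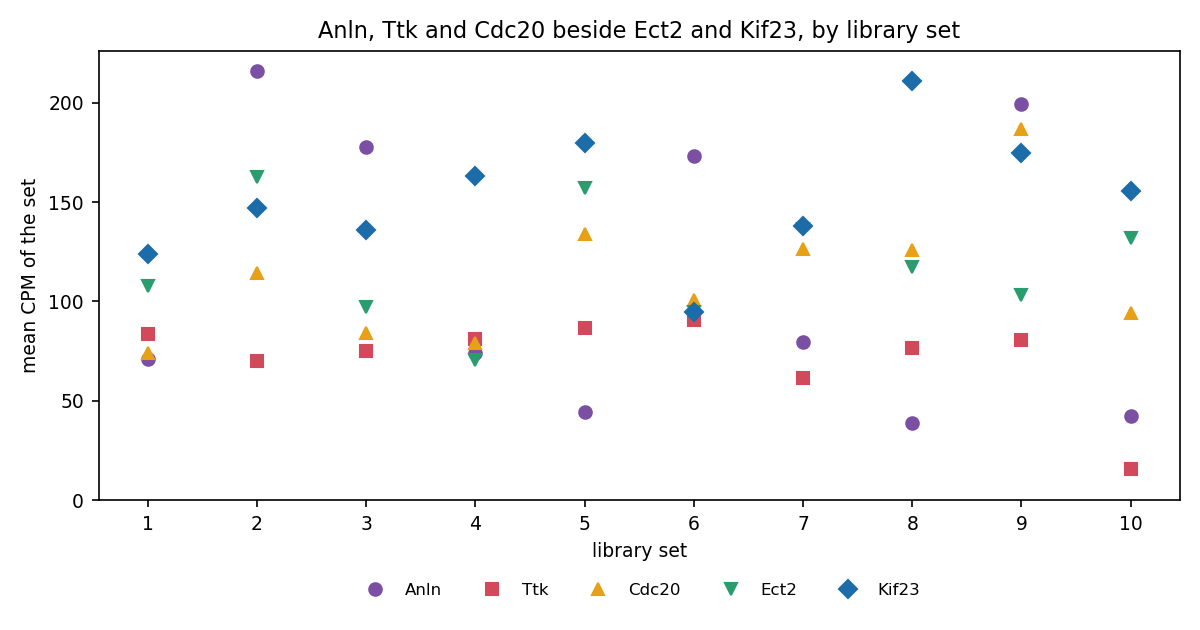
Mean CPM (linear axis from 0) of Anln, Ttk, Cdc20, Ect2 and Kif23 in the 10 library sets, 1 point per gene and set. Anln lies at 173.01 CPM or more in sets 2, 3, 6 and 9 and below 80 in the others, Ttk at 15.5 CPM in set 10, and Cdc20 at 186.7 CPM in set 9.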

How the data were processed

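Counts per gene were used as the authors deposited them, in 1 table of 400 cells and 33496 genes, whole numbers that are not normalized and reach at most 36. Per the submitters' processing notes, reads were placed on GRCm38.p4. For the aligner, counting tool, annotation release, strand and molecular identifiers, the sources used here give nothing. Symbols and positions came from GENCODE M21 (GRCm38); 277 identifiers had no symbol.

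Cells with at least 10000 counts were kept (380 of 400). CPM used all counts of a cell. Doublets were not removed. Spearman's rho was taken over cells with numpy 2.4.6, pandas 2.3.3 and scipy 1.17.1 in Python 3.11.15, between each gene and the summed CPM of the other 50, and for all 17217 genes detected in 10% or more of kept cells. Near-identical copies had 95% identity over 200 bases. For equal depth, cells were thinned at random to 19169 counts and 38 shallower ones left out. The scripts were tested on simulated data. Alternatives changed the cell filter, depth, the ceiling of the counts, scale, pseudocount (10 or 1 CPM), measure and limit.

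The 51 genes and all lists were chosen with earlier results of these data known. Every one of the 51 counted as named, with fuller values for central regulators and the highest and lowest of each role group. Outside them, the 10 genes with the highest and the 5 with the lowest rho were named, and from each list the 3 highest and the 2 lowest, given in part for the lineage lists.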

Additional observations from a re-analysis of the deposited data

Results flagged for a closer look

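Set means of the 51 genes and of their summed share were examined for sets far from the others by Dixon's criterion for 10 values at the 95% level. Of 52 groups of set means, 2 passed it, and chance passes about 1 in 20, so this count is no more than chance would give. For Ttk, the mean of set 10 was 15.5 CPM, the nearest set had 61.3 CPM and the highest 90.6 CPM. For Cdc20, the mean of set 9 was 186.736 CPM, 1.39 times the nearest set, and the lowest set had 74.1 CPM; the gap was 0.468 of the range, only just past the critical value. Leaving out set 10 gave 38 called genes in place of 36, and leaving out set 9 gave 35.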

How the results depend on the processing

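The number of the 51 genes called at rho 0.3 or more was 36, and lay between 30 and 41 under all alternatives with that limit; leaving out each library set in turn gave 33 to 39. All 51 stayed above 0 under every alternative that was run over all or a part of the cells, apart from single library sets. The summed share, the median pairwise rho (0.16 to 0.18 without single sets), and the sublist correlation (0.86 to 0.88) moved by less than their spread over sets. The median ratio between high and low cells was 2.30 at equal depth in place of 2.35, and 35 promoters in place of 32 held the CHR letters when TTCGAA was counted as well; neither has a spread of its own. The share of all tested genes called, 0.993%, was 0.447% with total counts and number of genes held constant, 0.395% with the long-gene share held constant, 0.610% with genes detected in 1% or more of cells, 4.89% at a limit of 0.2, 5.67% as the median within sets of 36 to 39 cells, and 0.871% to 1.22% without single sets. The 21 of the further mitosis genes became 13 with total counts and number of genes held constant, 13 on the scale log2(CPM + 1), 13 with the long-gene share held constant, and 33 at a limit of 0.2. The G1 list, at 0.01, was -0.15 and -0.14 with depth or long-gene share held constant, and the endothelial list, at -0.27, was 0.0021 and 0.0174. The list of brakes, at 0.18, was 0.31 with z-scores. The enterocyte list, at 0.05, was -0.0631 with z-scores and -0.0762 with the long-gene share held constant. The cause of these shifts was not tested. Genes with a median of 0 to 3 counts per cell carry the largest relative counting error, and its part in their rho was not tested. No paired analysis was possible because the cells form 1 group.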
